A study of Caenorhabditis elegans with 18 samples.

Results

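The nlp genes of Caenorhabditis elegans encode precursors of neuropeptide-like proteins. The 70 genes described here are those whose only symbol in the platform annotation is nlp- followed by a number, without nlp-27 to nlp-34, a group of 8 genes best known as epidermal antimicrobial peptides. They were taken from 25478 genes with a single symbol, and each is read by 1 probe set of the array. By the current RefSeq annotation 22 of the 70 lie on chromosome X, 12 on IV, 11 each on II and V, and 7 each on I and III. The values are log2 signals on arrays, so a difference of 1 is a 2-fold difference, and levels are compared between arrays for 1 gene and never between genes.

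A neuropeptide precursor is cut at basic residues in dense core vesicles, trimmed by a carboxypeptidase and in many cases amidated at its end. The mature peptides are released by neurons, and some by gut cells, and act mostly on G protein-coupled receptors. In C. elegans they set behavioural states such as arousal, sleep, egg laying and the response to starvation.

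Each of the 18 samples was wild-type N2, the standard laboratory strain, placed as last-stage larvae and young adults in wells with 0.3 g of soil that carried lead (2700 mg/kg), zinc (4200 mg/kg) and cadmium (310 mg/kg). Every group was thus exposed to these metals, for 48 h at 20 °C. The control soil had no further addition, and the other soil had been treated with nanoscale zero-valent iron (nZVI), an iron powder used to immobilise metals. Both soils were used at 0 days, 14 days and 4 months, with 3 arrays in each of the 6 groups. The starting event of these times is not given in the labels. The 3 RNAs of a group were independent by the design text, but separate cultures are not stated, so p-values measure only the spread between these samples, which may be technical. RNA came from whole worms, so fewer cells of a type and less RNA per cell cannot be told apart. The labels name no batch, and the sampling time and anything else that differed between the times cannot be told apart.

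Array medians lay between 3.85 and 3.99, and arrays of a group correlated at 0.970 to 0.996. Control 4-month arrays 1 and 3 stood apart, with interquartile ranges of 3.80 and 3.70 against at least 4.07 on the other 16 arrays, so the counts that rest on them are given with and without both. On nZVI 14-day array 2 the mean of 15 germline markers was 9.33, against 8.60 and 8.61 on the other 2 arrays of its group. The same array had a mean of 7.68 for 14 moulting genes, against 8.58 and 8.70. For 12 epidermis markers it was 7.40, against 8.06 and 8.10. The mean of the 70 nlp genes was 6.67 on that array, against 6.96 and 6.84. Counts of called nlp genes at 14 days in nZVI soil are also given without it, but medians and differences of effect are not. Of the 70 genes, 60 had a mean signal above the median of all probe sets (3.93) and 10 did not: nlp-4, nlp-5, nlp-17, nlp-22, nlp-23, nlp-60, nlp-63, nlp-66, nlp-90 and nlp-119. No filter was set on low signal, and all 70 were tested.

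The pattern shared by most of the 70 genes was a lower signal in worms from the 4-month soils. In nZVI soil 50 genes were lower at 4 months than at 0 days, 2 were higher (nlp-24 and nlp-25) and 18 were not called. Of all probe sets 22.2% were called, 10.2% lower and 12% higher. A gene is called at an adjusted p under 0.05 in limma, adjusted by the Benjamini-Hochberg method over all 28387 probe sets. The median difference of the 70 genes was -0.97, against 0.01 over all probe sets. The arrays of the 2 groups did not overlap, with 4 months lower, for 53 of the 70 genes and for 18.7% of all probe sets. Of the 50 genes called lower 33 were at least 2-fold lower, a count given without its share over all probe sets. The number called lay between 44 and 51 whichever of the 6 arrays was left out. None of the arrays named above as standing apart is in the 2 groups compared, but all 18 arrays share the estimate of spread. Within these groups, nZVI 0-day array 2 had a germline marker mean of 8.01, against 8.53 and 8.37 on the other nZVI 0-day arrays.

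**Figure D1:**
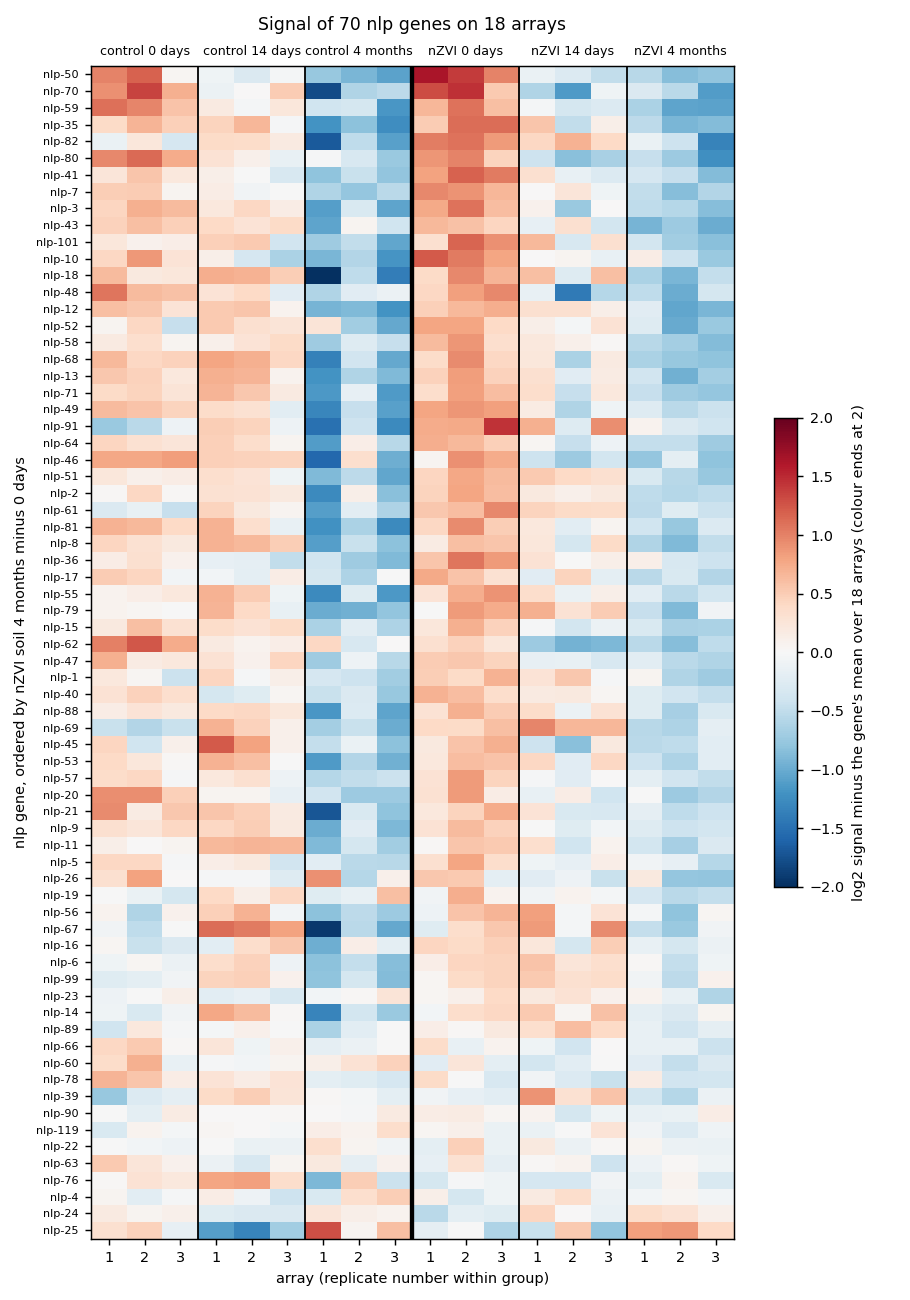
Each row is 1 of the 70 nlp genes and each column 1 of the 18 arrays, in 6 groups of 3; the colour gives the log2 signal minus the gene's mean over the 18 arrays, red for higher and blue for lower. Rows are ordered by the difference between 4 months and 0 days in nZVI soil, from the lowest (nlp-50, -2.07) to the highest (nlp-25, 0.96), and the 4-month columns are blue in most rows.

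The largest difference was in nlp-50 (F41G3.1, chromosome II). In nZVI soil its signal was 5.91, 5.68 and 5.26 at 0 days and 3.72, 3.42 and 3.48 at 4 months. All 3 arrays at 4 months were below all 3 at 0 days, and the signal was 4.21-fold lower (log2 difference -2.07 ± 0.24, SE, n = 3 arrays a group; limma adjusted p = 1.06e-05). The 14-day arrays, at 4.13, 4.00 and 3.78, lay between those of the other times and were already lower than at 0 days (-1.64 ± 0.24, limma adjusted p = 0.000386). Next in size came nlp-70 (-1.74 ± 0.35, limma adjusted p = 0.00167), nlp-59 (-1.71 ± 0.21, 3.28e-05), nlp-35 (-1.68 ± 0.25, 0.000141), nlp-82 (-1.61 ± 0.28, 0.000599) and nlp-80 (-1.58 ± 0.22, 8.47e-05). Of these, nlp-70 lies next to npr-5, a neuropeptide receptor gene.

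Genes with an established role in behaviour were among those that were lower. The gene nlp-12 (M01D7.5, chromosome I) encodes a cholecystokinin-like peptide that potentiates transmission from motor neurons to muscle. In nZVI soil its signal was 9.83, 10.01 and 10.09 at 0 days, 9.69, 9.69 and 9.48 at 14 days and 9.14, 8.32 and 8.44 at 4 months. The first of the 4-month arrays stood above the other two but below every earlier array, and 4 months was 2.54-fold lower than 0 days (-1.35 ± 0.19, limma adjusted p = 0.000125). In control soil the 0-day values were 9.96, 9.90 and 9.63 and the 4-month values 8.44, 8.48 and 8.17, again without overlap (-1.47 ± 0.19, limma adjusted p = 0.000169).

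The peptide of nlp-49 (H05L03.3, chromosome X) promotes locomotor arousal through the receptor SEB-3. Its signal in nZVI soil was 11.49, 11.59 and 11.52 at 0 days, 10.87, 10.10 and 10.62 at 14 days and 10.44, 10.17 and 10.27 at 4 months. The 0-day arrays were above all 6 later ones, and 4 months was lower by 2.36-fold (-1.24 ± 0.22, limma adjusted p = 0.000659). In control soil nlp-49 was at 11.33, 11.27 and 11.15 at 0 days and at 9.39, 10.25 and 9.62 at 4 months, which is 2.82-fold lower (limma adjusted p = 0.00036). The highest of these 4-month arrays was array 2, the one without a narrow range.

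The peptide of nlp-40 (Y74C9A.2, chromosome I) is released by the intestine and sets the timing of defecation through the receptor AEX-2. Its signal in nZVI soil was 8.66, 8.59 and 8.32 at 0 days and 7.73, 7.58 and 7.50 at 4 months (-0.92 ± 0.15, limma adjusted p = 0.000356), and the groups did not overlap. In control soil it was 8.25, 8.43 and 8.30 at 0 days and 7.53, 7.67 and 7.21 at 4 months (-0.86 ± 0.15, limma adjusted p = 0.00169).

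Egg laying is modulated by nlp-3, which promotes it, and nlp-7, which inhibits it, and both were lower at 4 months. For nlp-7 the nZVI-soil values were 9.22, 9.15 and 8.91 at 0 days, 8.26, 8.50 and 8.17 at 14 days and 7.75, 7.41 and 7.67 at 4 months. The 3 times did not overlap, and the difference between 4 months and 0 days had the smallest adjusted p of the 70 genes (-1.48 ± 0.16, limma adjusted p = 4.63e-06). For nlp-3 the corresponding difference was -1.46 ± 0.23 (limma adjusted p = 0.000239), and in control soil the differences were -0.99 ± 0.16 for nlp-7 and -1.41 ± 0.23 for nlp-3 (0.000728 and 0.000866).

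The sleep-related gene nlp-8, the gonadotropin-releasing hormone-like gene nlp-47, nlp-18 and nlp-20 were also lower at 4 months than at 0 days in both soils. In nZVI soil the differences were -1.10 ± 0.20 for nlp-8 (limma adjusted p = 0.000874), -0.95 ± 0.18 for nlp-47 (0.00103), -1.35 ± 0.30 for nlp-18 (0.00371) and -0.88 ± 0.22 for nlp-20 (0.00755). The nlp-20 call was lost without nZVI 0-day array 2 (adjusted p = 0.0541). The gene nlp-1, expressed in the olfactory neuron AWC, was lower in nZVI soil (-0.94 ± 0.22, limma adjusted p = 0.00483) and was not called in control soil (-0.42 ± 0.22, 0.235). The difference between the soils for nlp-1 was not called either (nZVI effect at 4 months minus that at 0 days).

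**Figure D2:**
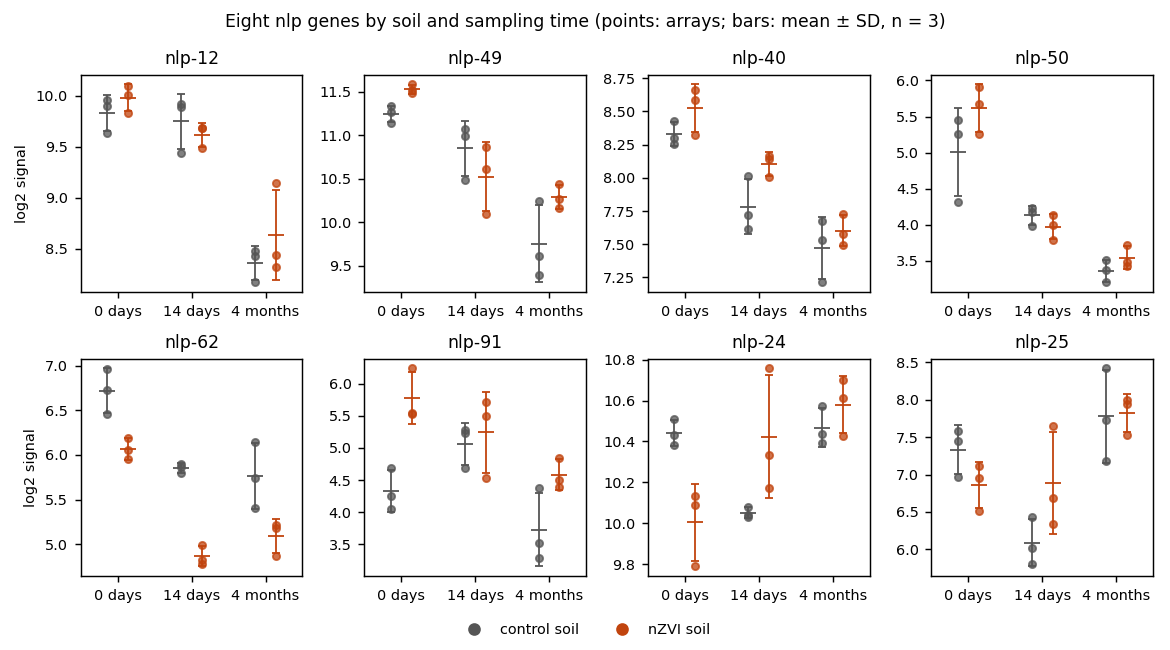
The log2 signal of 8 nlp genes is plotted by sampling time, in grey for control and orange for nZVI soil; points are arrays, and bars give the mean ± SD of 3 arrays. The 4-month points of nlp-12, nlp-49, nlp-40 and nlp-50 lie below the 0-day points of the same soil, nlp-62 is lower in nZVI soil at each time, and nlp-24 and nlp-25 do not have their lowest values at 4 months.

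In control soil 43 of the 70 genes were lower at 4 months than at 0 days and 0 were higher, against 9.71% of all probe sets called (6.33% lower and 3.38% higher). At an unadjusted p under 0.05, 48 of the 70 and 26% of all probe sets differed. The median difference was -0.84, against 0.06 over all probe sets, and 46 of the 70 genes (11.9% of all probe sets) had non-overlapping groups with 4 months lower. The result depended on the narrow arrays. With both left out, 1 array remains at 4 months, which is assumed to vary like the other groups, and the median difference was -0.50. Calls lost in that fit also reflect its smaller number of arrays. After scaling all arrays to the same interquartile range 35 were called, all lower, with a median of -0.68. With only the 6 arrays compared in the fit, 22 were called. The shares of all probe sets called after scaling and in the fit of 6 arrays are not given.

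The largest of these differences was in nlp-70 (Y58G8A.5, chromosome V), at 5.97, 6.40 and 5.76 at 0 days and at 3.27, 4.45 and 4.52 at 4 months. The lowest value was on array 1, one of the narrow arrays, and all 3 lay below every 0-day array (-1.96 ± 0.35, limma adjusted p = 0.00182; 0.0624 without both narrow arrays). Then came nlp-18 (-1.66 ± 0.30, limma adjusted p = 0.00227), nlp-50 (-1.65 ± 0.24, 0.000302), nlp-81 (-1.62 ± 0.23, 0.000272), nlp-35 (-1.60 ± 0.25, 0.000623) and nlp-46 (-1.53 ± 0.34, 0.00822). Without both narrow arrays the calls of nlp-18 (adjusted p = 0.181), nlp-35 (0.0606) and nlp-46 (0.497) were lost. The same held for nlp-3 (adjusted p = 0.109), nlp-8 (0.148), nlp-40 (0.0892), nlp-47 (0.328) and nlp-49 (0.0578), while nlp-7, nlp-12, nlp-20, nlp-50 and nlp-81 kept their calls.

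The comparisons of 4 months with 0 days in the 2 soils have no compared array in common, though they share the estimate of spread. They called 42 genes lower in both soils, which is 97.7% of the 43 in control soil and 84% of the 50 in nZVI soil. Of all probe sets 3.39% were lower in both. Without both narrow arrays 8 genes were lower in both soils (1.65% of all probe sets): nlp-7, nlp-12, nlp-20, nlp-50, nlp-59, nlp-62, nlp-80 and nlp-81. With all arrays only nlp-78 was called lower in control soil alone (adjusted p = 0.0254, and 0.231 without both narrow arrays), and nlp-1, nlp-17, nlp-19, nlp-45, nlp-52, nlp-61, nlp-69 and nlp-91 in nZVI soil alone. Of the 70 genes 59 had their lowest group mean at 4 months, 45 of them in control soil and 14 in nZVI soil, against 26.3% of all probe sets (15.9% and 10.4%). Without both narrow arrays the lowest mean was at 4 months for 56 genes, 22 in control and 34 in nZVI soil, against 27.9% of all probe sets. The highest group mean was in nZVI soil at 0 days for 39 genes (17.2% of all probe sets) and in control soil at 0 days for 12 (15%).

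**Figure D3:**
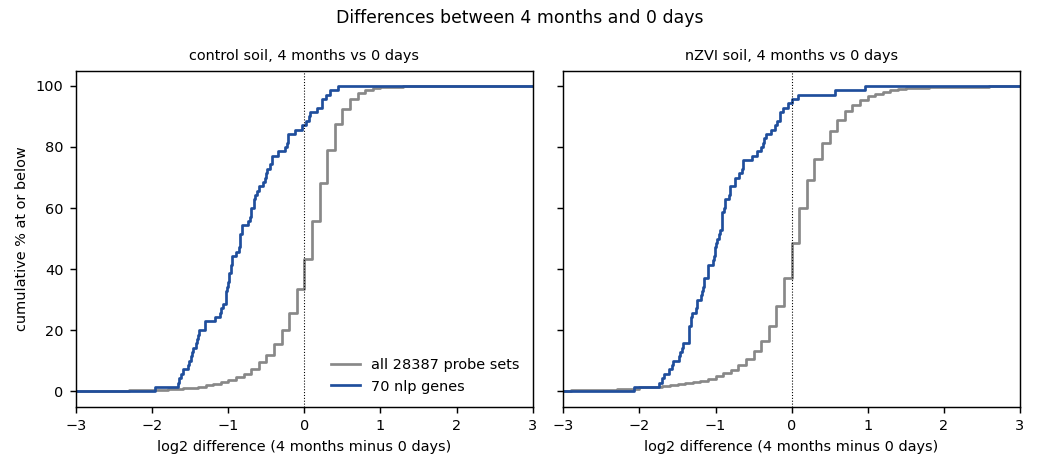
Cumulative percentage of genes (vertical axis) at or below each log2 difference between 4 months and 0 days (horizontal axis), for control soil on the left and nZVI soil on the right; blue lines are the 70 nlp genes and grey lines all 28387 probe sets. The blue lines lie to the left of the grey ones, with medians of -0.84 against 0.06 and -0.97 against 0.01.

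Most of the genes were also lower at 4 months than at 14 days in control soil. There 45 genes were lower and 1 (nlp-25) was higher, against 20.9% of all probe sets called (12% lower and 8.9% higher), with a median difference of -0.83 where all probe sets had 0.11. This comparison rests on the narrow arrays: without both of them the median difference was -0.57. After scaling 41 genes were called (39 lower and 2 higher, median -0.61), a count given without the share of all probe sets. The largest difference was in nlp-67 (R11.2, chromosome X), at 9.48, 9.40 and 9.17 at 14 days and 6.44, 7.82 and 7.35 at 4 months (-2.15 ± 0.32, limma adjusted p = 0.000351; 0.0618 without both narrow arrays). The 2 groups did not overlap.

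Between 0 and 14 days in control soil 8 genes were lower and 4 higher, against 11.9% of all probe sets called (6.08% lower and 5.8% higher), and the median difference was -0.02. The 4 higher ones were nlp-67 (1.19 ± 0.32, limma adjusted p = 0.0236), nlp-69 (0.92 ± 0.18, 0.005), nlp-39 (0.78 ± 0.18, 0.00991) and nlp-11 (0.60 ± 0.19, 0.0487). Among the lower ones were nlp-25 (-1.25 ± 0.32, limma adjusted p = 0.0202), nlp-50 (-0.88 ± 0.24, 0.0229), nlp-62 (-0.86 ± 0.18, 0.00616) and nlp-80 (-0.86 ± 0.22, 0.0183). Without control 0-day array 1 the count dropped to 2, without control 0-day array 2 or control 14-day array 2 to 3, and without control 14-day array 1 to 5. The calls of nlp-62 and nlp-69 held whichever array was left out.

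In nZVI soil 17 genes were lower at 14 days than at 0 days and 1 (nlp-39) was higher, against 8.8% of all probe sets called (4.67% lower and 4.13% higher), and the median difference was -0.49. All 17 were also lower at 4 months than at 0 days. Both comparisons use the same nZVI 0-day arrays, so this overlap is partly built in, and its share over all probe sets is not given. The largest differences after nlp-50 and nlp-70 (-1.70 ± 0.35, limma adjusted p = 0.00497) were in nlp-48 (-1.44 ± 0.28, 0.00345), nlp-80 (-1.40 ± 0.22, 0.000802), nlp-62 (-1.20 ± 0.18, 0.000485) and nlp-10 (-1.05 ± 0.24, 0.00983). For nlp-48 the 14-day values were 5.32, 4.05 and 4.89, the lowest on array 2. Without nZVI 14-day array 2 the count of called genes was 15, and without nZVI 0-day array 2 it was 11. From 14 days to 4 months in nZVI soil 15 genes were lower and none higher, against 8.53% of all probe sets called (4.33% lower and 4.21% higher), with a median of -0.46. That count was 26 without nZVI 14-day array 2 (25 lower and 1 higher) and 7 without nZVI 14-day array 1, nZVI 14-day array 3 or nZVI 4-month array 2. The largest difference was in nlp-69 (Y113G7A.15, chromosome V), at 6.73, 6.43 and 6.42 at 14 days and 5.21, 5.13 and 5.58 at 4 months (-1.22 ± 0.18, limma adjusted p = 0.000446), with no overlap. With the narrow arrays in, 10 genes were lower at 4 months than at either earlier time in both soils: nlp-7, nlp-8, nlp-12, nlp-13, nlp-35, nlp-43, nlp-51, nlp-58, nlp-79 and nlp-82. The same held for 1.22% of all probe sets, and without both narrow arrays nlp-12 alone remained.

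A few genes ran against the common pattern. For nlp-24 (F35B12.7, chromosome V), which encodes an opioid-like peptide that acts in starvation, the values in nZVI soil were 9.79, 10.13 and 10.09 at 0 days, 10.76, 10.33 and 10.17 at 14 days and 10.70, 10.61 and 10.43 at 4 months. The 0-day arrays were the lowest of the 9, and 4 months was 1.49-fold higher (0.58 ± 0.15, limma adjusted p = 0.0101). The call was lost without nZVI 0-day array 1 (adjusted p = 0.0532) and after scaling the arrays (0.0555). In control soil the difference was 0.03 ± 0.15 (limma adjusted p = 0.927).

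For nlp-25 (Y43F8C.1, chromosome V) the nZVI-soil values were 6.95, 7.11 and 6.52 at 0 days and 7.95, 7.99 and 7.53 at 4 months, without overlap (0.96 ± 0.32, limma adjusted p = 0.0405). This call was lost in 5 of the 6 fits that left out an array (adjusted p between 0.0568 and 0.149 where lost) and after scaling (0.0712). In control soil nlp-25 stood at 7.45, 7.58 and 6.97 at 0 days, 6.02, 5.81 and 6.43 at 14 days and 8.42, 7.18 and 7.73 at 4 months. The 14-day arrays were the lowest of the 9, and 4 months was higher than 14 days (1.69 ± 0.32, limma adjusted p = 0.00221; 0.235 without both narrow arrays).

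For nlp-39 (C54C8.9, chromosome I) 14 days was the high point in both soils. In control soil its values were 4.30, 4.79 and 4.88 at 0 days, 5.45, 5.56 and 5.32 at 14 days and 5.09, 5.03 and 4.86 at 4 months, and in nZVI soil 4.99, 4.89 and 4.85, then 5.96, 5.37 and 5.64, then 4.70, 4.49 and 4.95. In both soils the 14-day arrays were above all others of that soil. The signal at 14 days was higher than at 0 days in control soil (0.78 ± 0.18, limma adjusted p = 0.00991) and in nZVI soil (0.75 ± 0.18, 0.0129). The first call was lost without control 0-day array 1 (adjusted p = 0.0595) and the second without nZVI 14-day array 1 (0.0647). In nZVI soil the signal at 4 months was lower than at 14 days (-0.95 ± 0.18, limma adjusted p = 0.00322).

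Of the other genes with an established role, nlp-14, which acts in stress-induced sleep, was not called between 0 days and 4 months (nZVI soil -0.38 ± 0.24, limma adjusted p = 0.291; control soil -0.66 ± 0.24, 0.0905). The same was true of nlp-22, which promotes sleep during moults (-0.12 ± 0.17, 0.695; 0.17 ± 0.17, 0.556). Its signal was between 2.41 and 3.07 on all 18 arrays, below the median of all probe sets. Never called in the 12 comparisons were 10 genes: nlp-4, nlp-16, nlp-22, nlp-23, nlp-26, nlp-60, nlp-63, nlp-66, nlp-90 and nlp-119, of which only nlp-16 and nlp-26 had a mean signal above that median. The share of all probe sets never called is not given.

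Across the 18 arrays 35 genes had a Pearson r above 0.8 with the median of the other members, 11 an r under 0.3 and 4 an r below 0 (nlp-4, nlp-24, nlp-25 and nlp-119). These values are a description, since the arrays share groups and a normalisation. The closest to the others were nlp-13 (0.978), nlp-35 (0.975) and nlp-71 (0.971), and nlp-25 was the farthest (-0.668). Neighbours in the genome did not always share the pattern. On X the genes nlp-45, nlp-22, nlp-23 and nlp-2 follow each other, and nlp-2 had an r of 0.920 and nlp-45 of 0.716, against 0.0149 for nlp-22 and 0.175 for nlp-23. The adjacent genes nlp-9 and nlp-13 on V had r of 0.953 and 0.978. On X nlp-119, nlp-90 and nlp-91 are adjacent, with r of -0.210, 0.0959 and 0.727. The low values of nlp-22, nlp-23, nlp-90 and nlp-119 go with signals below the median of all probe sets.

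Among worms sampled at the same time, fewer of the 70 genes were called between the soils. At 0 days 7 genes were higher in nZVI than in control soil and 1 was lower, against 16% of all probe sets called (8.22% higher and 7.74% lower). The median difference was 0.24, against -0.01 over all probe sets, and 54 of the 70 genes had a difference above 0. Below 0 were 22.9% of the 70 genes and 51.3% of all probe sets. The largest was in nlp-91 (K02A6.2, chromosome X), at 4.05, 4.25 and 4.68 in control soil and 5.53, 5.54 and 6.24 in nZVI soil. All 3 nZVI arrays were above all 3 control arrays, and the signal was 2.72-fold higher (1.44 ± 0.32, limma adjusted p = 0.00475).

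For nlp-61 (F26A10.1, chromosome X) the control values at 0 days were 6.75, 6.89 and 6.58 and the nZVI values 7.58, 7.65 and 7.99, without overlap (1.00 ± 0.19, limma adjusted p = 0.00157). For nlp-69 they were 5.30, 5.17 and 5.30 against 6.16, 6.14 and 6.35, again without overlap (0.96 ± 0.18, limma adjusted p = 0.00126). The other 4 were nlp-82 (1.07 ± 0.28, limma adjusted p = 0.0152), nlp-41 (0.67 ± 0.19, 0.0228), nlp-36 (0.65 ± 0.18, 0.0199) and nlp-7 (0.49 ± 0.16, 0.0415). The calls of nlp-91, nlp-61 and nlp-69 held whichever array was left out. Those of nlp-82, nlp-41, nlp-36 and nlp-7 did not, and the count dropped from 8 to 3 without control array 1, to 5 without control array 3 and to 4 without nZVI array 2.

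At 14 days 4 genes were lower in nZVI soil and none higher, against 8.99% of all probe sets called (5.39% lower and 3.6% higher). The median difference was -0.16, against 0.04 over all probe sets. They were nlp-45 (-1.06 ± 0.29, limma adjusted p = 0.0293), nlp-62 (-0.99 ± 0.18, 0.00132), nlp-76 (-0.91 ± 0.25, 0.0295) and nlp-11 (-0.65 ± 0.19, 0.0393). For nlp-45 the arrays overlapped, at 5.20, 4.78 and 4.08 in control and 3.56, 3.15 and 4.17 in nZVI soil. Only nlp-62 kept its call whichever array was left out, and it was the only one called without nZVI array 2, control array 1 or control array 2. With array weights in the fit 21 genes were called, a count given without the share of all probe sets called in that fit.

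At 4 months 1 gene, nlp-62, was lower in nZVI soil and none was higher, against 7.08% of all probe sets called (2.3% lower and 4.77% higher). At an unadjusted p under 0.05, 14 of the 70 genes and 23% of all probe sets differed. The median difference was 0.14 in the deposited values, -0.04 after scaling the arrays and -0.08 without both narrow control arrays. Without control array 2, which leaves only the narrow control arrays, 15 genes were called (13 higher and 2 lower). The share of all probe sets called in that fit is not given, so this count is not a result about the nlp genes alone. Leaving out array 3 of the control group, or array 2 or array 3 of the nZVI group, gave no called gene. A fit of these 6 arrays with replicate number as a block called none.

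The gene nlp-62 (F33D11.8, chromosome I) was the only one called at all 3 times. At 0 days it was at 6.73, 6.97 and 6.46 in control and 6.05, 6.19 and 5.95 in nZVI soil (-0.65 ± 0.18, limma adjusted p = 0.0175). At 14 days it was at 5.90, 5.80 and 5.86 in control and 4.99, 4.78 and 4.82 in nZVI soil, 1.99-fold lower. At 4 months it was at 6.15, 5.40 and 5.74 in control and 5.18, 4.87 and 5.21 in nZVI soil (-0.68 ± 0.18, limma adjusted p = 0.0277). The nZVI arrays were below the control arrays at each time. Leaving out control array 1 (adjusted p = 0.055), control array 2 (0.0902) or nZVI array 3 (0.0717) ended the 0-day call. The 4-month call ended on leaving out array 1 (0.137) or array 3 (0.0825) of the control group or array 2 (0.129) or array 3 (0.0544) of the nZVI group, and with replicate number as a block among these 6 arrays (0.0792). Without both narrow control arrays the 4-month difference was -0.31 (adjusted p = 0.791).

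**Figure D4:**
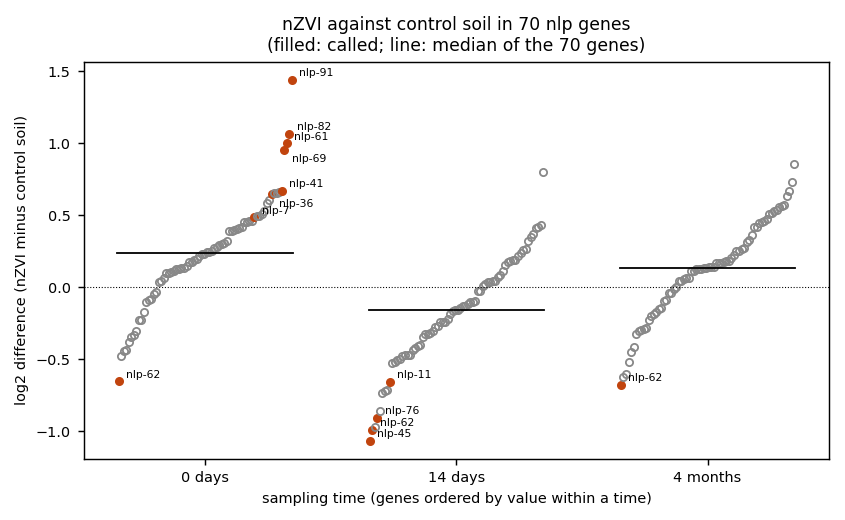
The vertical axis gives the log2 difference of each of the 70 nlp genes between nZVI and control soil, at the 3 sampling times; genes are ordered by value within a time, filled points are called and named, and the black line is the median. At 0 days the median is 0.24 and 8 genes are called, at 14 days it is -0.16 with 4 called, and at 4 months it is 0.14 with nlp-62 alone called.

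None of the 70 genes was called for a difference between the nZVI effects at any pair of times, where 1.05% (14 against 0 days), 4.32% (4 months against 0 days) and 1.36% (4 months against 14 days) of all probe sets were called. At an unadjusted p under 0.05 the genes numbered 21, 9 and 17, or 30%, 12.9% and 24.3% of the 70, against 15.8%, 20.7% and 18.8% of all probe sets. The smallest adjusted p-values from limma were 0.0824 (nlp-24), 0.0947 (nlp-19) and 0.0924 (nlp-9). The difference of effect between 14 and 0 days was below 0 for 60 of the 70 genes and for 46.6% of all probe sets. Its median was -0.50 against 0.03 over all probe sets, and the farthest were nlp-45 (-1.51) and, upwards, nlp-25 (1.28). With array weights 7, 1 and 9 genes were called in the 3 comparisons. Without control 4-month array 2, 13 were called between 14 days and 4 months and 2 between 0 days and 4 months, and without nZVI 14-day array 3, 2 were called between 0 and 14 days. The shares of all probe sets called with weights or with an array left out are not given, so these counts are not a result about the nlp genes alone.

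Enzymes that make mature peptides were measured with the same arrays. For the lists that follow, the shares of all probe sets called at 4 months against 0 days were 10.2% lower and 12% higher in nZVI soil. In control soil they were 6.33% lower and 3.38% higher. For nZVI against control soil 8.22% were higher and 7.74% lower at 0 days, 3.6% and 5.39% at 14 days, and 4.77% and 2.3% at 4 months. Of 11 genes of precursor processing and amidation, 5 were lower and 1 was higher at 4 months than at 0 days in nZVI soil, with a median of -0.60. The lower ones were pghm-1 (-1.23 ± 0.24, limma adjusted p = 0.00163) and pgal-1 (-1.10 ± 0.18, 0.000339), which encode a monooxygenase and a lyase for the 2 steps of amidation, sbt-1 (-0.94 ± 0.16, 0.000506), a chaperone of the convertase EGL-3, the furin-like kpc-1 (-0.78 ± 0.15, 0.00148) and the carboxypeptidase egl-21 (-0.60 ± 0.18, 0.0272). The egl-21 call was lost in 4 of the 6 fits that left out an array, and the other 4 were kept in all 6. In control soil the same 5 genes were lower, from -0.80 (egl-21) to -1.35 (pghm-1), and none of the 11 was called without both narrow arrays (median -0.12).

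The gene that was higher was pamn-1, which encodes a single enzyme for both amidation steps. In nZVI soil its signal was 7.58, 7.23 and 7.43 at 0 days, 7.71, 7.58 and 7.72 at 14 days and 8.14, 8.40 and 8.66 at 4 months, and the last group lay above both others (0.99 ± 0.18 against 0 days, limma adjusted p = 0.000918). In control soil it was 8.88, 8.62 and 8.81 at 0 days, above all nZVI arrays of that time (-1.35 ± 0.18 for nZVI against control, limma adjusted p = 6.34e-05). Over the same groups at 0 days the carboxypeptidase gene cpd-2 was higher in nZVI soil (1.29 ± 0.26, limma adjusted p = 0.00259), as was aex-5 (0.51 ± 0.16, 0.0342), a call lost in 5 of the 6 fits that left out an array.

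Of 20 genes of dense core vesicle formation and release, 3 were lower and 1 higher at 4 months in nZVI soil, with a median of -0.09. These counts are near the shares of all probe sets (10.2% lower and 12% higher). The called genes were ric-4, the SNAP-25 of synaptic release (-1.42 ± 0.27, limma adjusted p = 0.00118), ida-1, a vesicle membrane protein (-0.69 ± 0.22, 0.0321), the vesicle kinesin unc-104 (-0.53 ± 0.16, 0.0229) and, higher, rund-1 (0.84 ± 0.24, 0.0164). Only ric-4 kept its call whichever array was left out. In control soil 3 were lower (ric-4, ida-1 and aex-4) and, without both narrow arrays, none was called.

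Of 12 receptors known to bind an nlp peptide, 4 were lower and none higher at 4 months in nZVI soil, with a median of -0.41. The NLP-49 receptor gene seb-3 was at 7.15, 7.32 and 7.15 at 0 days and 6.06, 6.11 and 5.94 at 4 months (-1.17 ± 0.24, limma adjusted p = 0.00185), without overlap. The others were gnrr-1 (-0.65 ± 0.19, limma adjusted p = 0.0215) and the NLP-12 receptor genes ckr-1 (-0.57 ± 0.19, 0.0428) and ckr-2 (-0.59 ± 0.21, 0.0496). In control soil 2 of the 12 were lower, and none was called without both narrow arrays. Of the 4 in nZVI soil, seb-3 alone kept its call in every fit that left out an array. At 0 days ckr-1 (0.71 ± 0.19, limma adjusted p = 0.018) and seb-3 (0.84 ± 0.24, 0.0219) were higher in nZVI than in control soil, and each call was lost in 4 of the 6 such fits.

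Of 44 npr receptor genes, 16 were lower and none higher at 4 months in nZVI soil (9 to 16 with an array left out; median -0.43), led by npr-22 (-1.54 ± 0.22, limma adjusted p = 0.000114) and npr-10 (-0.98 ± 0.16, 0.000432). In control soil 4 of the 44 were lower and none higher (0 to 10 lower with an array left out), with a median of -0.04, and without both narrow arrays none was called (median 0.09). At 0 days 11 were higher in nZVI than in control soil and none lower (5 to 11 with an array left out; median 0.40), with npr-22 at 1.10 ± 0.22 (0.00243), npr-42 at 1.15 ± 0.23 (0.00238) and npr-10 at 0.81 ± 0.16 (0.00248). Of 26 neprilysin peptidase genes, a family whose members can degrade peptides, 5 were higher and 2 lower at 4 months than at 0 days in nZVI soil (2 to 6 and 0 to 2 with an array left out). Of the same 26, 5, 1 and 7 were higher in nZVI than in control soil at 0 days, 14 days and 4 months, with none lower (5, 1 to 3 and 2 to 14 with an array left out). Without both narrow control arrays none was called at 4 months (median 0.23). They included nep-17 (1.39 ± 0.17 at 0 days, limma adjusted p = 3.18e-05) and nep-1 (1.03 ± 0.14, 7.5e-05).

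At 4 months against 0 days in nZVI soil, the medians of the cell type marker lists were lower by less than that of the nlp genes, or were higher. Of 20 neuron markers 6 were lower at 4 months than at 0 days in nZVI soil (3 to 5 with an array left out) and 1, ehs-1, was higher, with a median of -0.22 where the 70 nlp genes had -0.97. The 6 were ric-4, snt-1 (-0.88 ± 0.20, limma adjusted p = 0.00463), tbb-4 (-0.97 ± 0.23, 0.00621), unc-104, egl-21 and rab-3 (-0.96 ± 0.30, 0.0315). The mean of the 20 on an array was 8.06 to 8.12 at 0 days and 7.76 to 7.83 at 4 months, while the mean of the 70 nlp genes was 7.16 to 7.41 and 6.28 to 6.53. Some neuron markers are also in the processing and vesicle lists, egl-21, ric-4 and unc-104 among them. In control soil 2 neuron markers were lower and 1 higher (median -0.38). Their mean was 7.81 to 8.01 on the 0-day arrays, 7.23 and 7.40 on the narrow 4-month arrays and 7.97 on the remaining one, and without both narrow arrays none was called (median 0.02).

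Germline markers moved the other way in nZVI soil: all 15 were higher at 4 months than at 0 days (9 to 15 with an array left out), with a median of 0.89 and array means of 8.01 to 8.53 at 0 days and 9.23 to 9.40 at 4 months. In control soil 1 of the 15 was higher, and none without both narrow arrays, with means of 8.81 to 8.98 and 9.06 to 9.23. In nZVI soil 4 of 12 epidermis markers were higher, and the median of the 12 was 0.19. The 4 were the adult cuticle collagen gene bli-1 (4.67 ± 0.36, limma adjusted p = 1.33e-07), rol-6 (1.79 ± 0.22), col-12 (1.67 ± 0.26) and col-19 (1.19 ± 0.29). The other 8 were not called, and the lowest of them was dpy-7 (-0.56). Of 14 moulting genes 4 were higher, and bli-1 is counted in that list too. Of 12 muscle markers 5 were higher, unc-54 among them, and 3 were lower (myo-1, myo-2 and tnt-3). Of 11 intestine markers 2 were lower, and of 10 embryo markers 1 was higher and 1 lower. At 0 days 7 of the 70 nlp genes were higher in nZVI than in control soil and 1 was lower (8.22% and 7.74% of all probe sets). There 7 of 11 intestine and 5 of 14 moulting markers were higher, 5 of 15 germline markers were lower and none of 20 neuron markers was called (5 to 7, 2 to 6, 1 to 6 and 0 with an array left out). In that comparison 5 of 12 muscle markers were also higher (3 to 5 with an array left out). They were myo-1 (1.23 ± 0.16, limma adjusted p = 3.48e-05), myo-2, tnt-3, unc-15 and unc-27. The other 7 were not called, myo-3 (0.11) and unc-54 (0.21) among them. Of 12 epidermis markers 4 were higher and 1 lower (1 to 3 and 0 to 1 with an array left out). The part of these markers in the nlp differences was not tested.

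**Figure D5:**
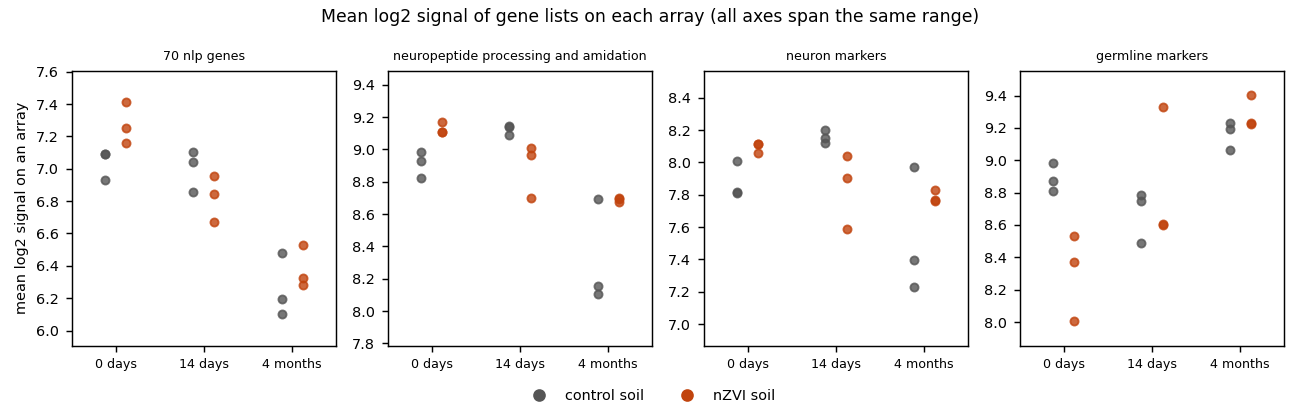
Each point is the mean log2 signal of a gene list on 1 array, by sampling time, in grey for control and orange for nZVI soil; the 4 axes span the same range. The nlp genes lie at 6.93 to 7.41 at 0 days and 6.10 to 6.53 at 4 months, with no overlap, and the germline markers lie higher at 4 months than at 0 days.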

How the data were processed

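Per the labels, RNA was hybridised to C. elegans Gene 1.0 ST arrays, 1 array a sample. The authors deposited log2 signals per probe set, made with RMA in the Transcriptome Analysis Console per the submitters' processing notes (no version stated). RMA gives arrays like distributions, which hides a shift common to most genes. Genes were named through the platform annotation; chromosomes and neighbours come from RefSeq (WBcel235). The 70 genes and all lists were chosen with earlier results of these data known. In limma 3.58.1 (R 4.3.3) 1 coefficient per group was fitted to all 18 arrays and 28387 probe sets, 12 contrasts were tested two-sided with eBayes, and p-values were adjusted by Benjamini-Hochberg; ± is the standard error. The fit was tested on simulated data. Named genes are called ones (all for nZVI against control, the 6 largest each way otherwise), 14 listed for known roles (nlp-44 is not among the 70), and called genes of the lists. Precision is limited by 3 arrays a group. Same-numbered arrays deviated together for nZVI against control at 4 months (correlations 0.104 to 0.374) and nZVI soil at 4 months against 14 days (0.108 to 0.209); these count as pairs from the data, not the labels. Alternatives were array centring, scaling, weights, a filter, a block and left-out arrays. Peptide sequences were not analysed here.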

Additional observations from a re-analysis of the deposited data

Results flagged for a closer look

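No nlp gene was called for a difference of its nZVI effect between times in the fit of all arrays; array weights and left-out arrays gave some calls. Of the pathway genes, in lists of 11, 20, 12, 44 and 26, 5 were called, by a limma test of the difference itself. Of all probe sets 1.05% were called from 0 to 14 days and 4.32% from 0 days to 4 months. These few calls are therefore not a result about the lists. From 0 to 14 days the nZVI effect moved by -1.30 for npr-18 (adjusted p = 0.0302) and -0.96 for npr-2 (0.0412). From 0 days to 4 months it moved by 1.09 for pamn-1 (0.0234), 1.14 for eipr-1 (0.0422) and -1.01 for npr-10 (0.0211). With each of 12 arrays left out in turn the calls held in 2, 2, 6, 2 and 7 fits.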

How the results depend on the processing

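With 1 array left out, the number of the 70 genes called ranged from 3 to 10 (nZVI at 0 days), 1 to 4 (14 days) and 0 to 15 (4 months). It ranged from 0 to 2, 0 to 2 and 0 to 13 for the differences of effect (14 days against 0, 4 months against 0, 4 months against 14 days). In control soil it ranged from 2 to 11, 33 to 47 and 33 to 47, and in nZVI soil from 11 to 16, 44 to 51 and 7 to 26, in the same order of times. A rule of 2-fold or more with unadjusted p below 0.05 gave 3, 1 and 0 for nZVI, 3 and 6 for the differences of effect from 0 to 14 days and from 14 days to 4 months, 2, 25 and 28 in control soil and 11, 33 and 3 in nZVI soil. Array weights gave 21 and 3 for nZVI at 14 days and 4 months, 7, 1 and 9 for the differences of effect, 26 in control soil from 0 to 14 days and 40 in nZVI soil from 14 days to 4 months. Fits of only the groups compared gave 0 for nZVI at 4 months, 22 and 29 for control soil at 4 months against 0 and 14 days. Trend and robust settings gave 0 for nZVI at 4 months. Alternatives chosen after seeing the data were scaling (1 gene for the difference of effect from 0 days to 4 months) and leaving out both narrow arrays (0 for nZVI at 4 months, 2 for that difference of effect, 8 and 1 for control soil at 4 months). The cause of these shifts was not tested. Most counts under alternative settings, here and above, are given without the share of all probe sets called in the same fit. A shift in them is therefore not a result about the nlp genes alone. Replicate number as a block over all groups gave 10, 4, 1, 0, 0, 0, 11, 42, 49, 18, 50 and 15 in the order above; among only the paired groups it gave 0 for nZVI at 4 months and 18 for nZVI soil from 14 days to 4 months. Of the named genes' values under alternatives, 2502 kept their side of the threshold, 203 lost a call, 40 gained one and 0 reversed.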
